A study of Homo sapiens with 12 samples.

Results

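SPP1, MMP1, MMP9, ACP5, A2M and TIMP1 encode secreted proteins of matrix remodelling and of osteoclasts and macrophages. These 6 genes, of 27827 symbols in either count table, were picked by symbol as secreted products that were higher with an agonist antibody to LILRB3. The agonist values below therefore describe the choice and carry no test. All cells were U937, a human pro-monocytic leukaemia line, and per the labels and the series text all received 50 ng/mL interferon gamma first, to raise LILRB3. Set 1 compared a LILRB3 antagonist antibody with nonspecific IgG, and set 2 compared a LILRB3 agonist antibody with its own nonspecific IgG. Each of the 4 groups had 3 libraries, the antibodies were left on for 72 hours, and the labels write their concentration as 5 mg/mL. The column names of set 1 carry the letters IFN and those of set 2 do not, although the labels give interferon gamma for both. The labels do not say whether the libraries stem from independent cultures. A p-value here thus reflects the spread of these libraries alone, and that spread may be technical.

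LILRB3 is a leukocyte receptor with inhibitory ITIM motifs in its cytoplasmic tail, found on myeloid cells. Matrix metalloproteinases are secreted as inactive precursors, cut collagens and other matrix proteins once activated, and are held in check by the tissue inhibitors of the TIMP family and by the broad protease trap alpha-2-macroglobulin. Osteopontin and tartrate-resistant acid phosphatase are abundant products of osteoclasts and of activated macrophages, cells of the same monocytic lineage as U937.

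The set 1 table held 27825 genes with a symbol and between 17035334 and 18820312 counts per library. The set 2 table listed 904 genes, 902 of them shared with set 1, with 2764479 to 3522203 counts per library. Among listed genes, the negative log2 fold change closest to zero was -0.25 and the positive one 0.12, while 23.1% of the genes tested in set 1 had values within 0.1 of zero. Set 2 was therefore treated as a selection, and its totals are not library depths. Libraries of a group differed beyond counting noise, most for agonist library 1, whose chi-square over its degrees of freedom was 24.9 and 26.6 against its fellow libraries, which gave 3.74 between them. IgG library 1 of set 1 gave 10.9 and 19.6, against 4.50. Of 11 monocytic markers all 11 were counted in set 1, among them CD33 and the myeloid factor SPI1, but the monocyte receptor CD14 had 22 counts over the IgG libraries. Of 6 osteoclast markers, the matrix protease CTSK had 199 counts over the IgG libraries and DCSTAMP 141. TNFRSF11A had 47, ATP6V0D2 12, OCSTAMP 2 and the calcitonin receptor CALCR 0. HBB, a globin of red cells, and EPCAM, an epithelial adhesion protein, had 0 counts throughout set 1.

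All 6 genes are protein coding and lie apart from each other in the genome (GENCODE 29, GRCh38): SPP1 on chromosome 4 (87975650 to 87983426), MMP1 on chromosome 11 (102789920 to 102798160), MMP9 on chromosome 20 (46008908 to 46016561), ACP5 on chromosome 19 (11574660 to 11579008), A2M on chromosome 12 (9067664 to 9116229) and TIMP1 on chromosome X (47582313 to 47586789). Antisense neighbours share exon bases with MMP9 (SLC12A5-AS1, 18.4% of its exon bases), A2M (A2M-AS1, 8.79%) and MMP1 (the pseudogene WTAPP1, 7.61%). The use of strand in counting is not given in the sources used here, and without it reads of such pairs cannot be told apart. TIMP1 lies within the opposite-strand gene SYN1 with 0 shared exon bases.

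Promoter sequence was matched for 3 of the 6 genes, SPP1, ACP5 and TIMP1, and not for MMP1, MMP9 and A2M. The windows of SPP1 and TIMP1 are shown because both genes were higher with the agonist while their levels in set 1 differed widely. Each is the 250 bases before the RefSeq start (GRCh38.p14, plus strand; SPP1 at chr4:87975464-87975713, TIMP1 at chrX:47582186-47582435), written 5′ to 3′ with matches to the motifs named below in capitals.
SPP1: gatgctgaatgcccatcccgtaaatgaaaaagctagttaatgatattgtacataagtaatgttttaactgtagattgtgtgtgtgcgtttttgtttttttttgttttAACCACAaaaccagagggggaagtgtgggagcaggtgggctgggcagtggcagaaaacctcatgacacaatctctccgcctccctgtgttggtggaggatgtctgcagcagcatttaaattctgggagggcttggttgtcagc
TIMP1: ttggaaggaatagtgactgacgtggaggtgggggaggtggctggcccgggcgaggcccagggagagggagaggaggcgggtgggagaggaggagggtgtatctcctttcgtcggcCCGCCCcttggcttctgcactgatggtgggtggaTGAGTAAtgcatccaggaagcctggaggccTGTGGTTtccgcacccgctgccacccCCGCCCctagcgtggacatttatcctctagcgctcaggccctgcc
Motifs were searched on both strands. The RUNX letters AACCACA were found in both windows, 143 to 137 bases before the start of SPP1 and, on the other strand, 71 to 65 bases before that of TIMP1, against 3.65% of 35116 windows of the same length. TGAGTAA, a variant of the AP-1 site, was found in TIMP1 101 to 95 bases before the start (2.21% of windows). The GC box GGGCGG occurred at 2 places in TIMP1 (42.6% of windows). The AP-1 letters TGANTCA (6.57% of windows), the STAT letters TTCNNNGAA (6.57%), TATAAA (10.7%) and the E-box CACGTG (6.34%) were not in either window. RefSeq gives ACP5 4 starts, and their windows held GC boxes in the first pair, TTCCTGGAA in the third and CACGTG in the fourth. A match is a description of the letters and not a bound site.

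SPP1 encodes osteopontin, a secreted phosphoprotein that binds integrins and CD44. Its IgG libraries in set 2 held 824, 577 and 882 counts and its agonist libraries 2044, 1855 and 1868. The agonist libraries were close to each other and all lay above the IgG libraries. Scaled by TMM, SPP1 went from 244 ± 36 to 579 ± 24 CPM (counts per 1000000, here of the listed genes' counts; SD, n = 3 per group), 2.37-fold or 1.24 ± 0.10 on the log2 scale (SE).

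The collagenase MMP1 and the gelatinase MMP9 were also higher with the agonist. MMP1, interstitial collagenase, had 391, 284 and 321 counts with IgG and 723, 720 and 774 with the agonist, from 107 ± 10 to 223 ± 10 CPM of listed counts (2.08-fold, log2 1.06 ± 0.10). MMP9, gelatinase B, had 7194, 6686 and 6910 counts with IgG and 13695, 11235 and 12105 with the agonist. The MMP9 groups did not overlap either, and the level went from 2246 ± 127 to 3711 ± 252 CPM of listed counts (1.65-fold, log2 0.72 ± 0.06). Agonist library 1 was the highest for MMP9, and without it the log2 fold change was 0.67.

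The inhibitors moved less evenly. TIMP1, which blocks most matrix metalloproteinases, had 4978, 3969 and 4519 counts with IgG and 7322, 5929 and 6253 with the agonist. Its groups did not overlap, and at 1.35-fold (log2 0.43 ± 0.06) it was the smallest change among the 6 genes. A2M, the secreted trap that engulfs proteases of all classes, had 32, 38 and 35 counts with IgG and 107, 120 and 85 with the agonist (2.76-fold, log2 1.47 ± 0.24). All agonist libraries lay above the IgG libraries for A2M.

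ACP5 encodes tartrate-resistant acid phosphatase, the enzyme that marks osteoclasts. It was the most sparsely counted of the 6, with 10, 2 and 19 counts in the IgG libraries and 61, 29 and 36 in the agonist libraries. The IgG libraries spread widely and still lay below the agonist libraries. Its log2 fold change of 1.91 ± 0.49 rested on those few reads, with 2.66 without IgG library 3 and 1.49 without IgG library 2. All 6 genes thus had agonist libraries that did not overlap the IgG libraries, as did 53.4% of the 904 listed genes in that direction, and edgeR called 99.9% of the listed genes changed, with 55.6% of the listed genes called higher. Nothing is read from these shares, since the genes were chosen on this contrast. In the same libraries the 3 listed monocytic markers CD14, CSF1R and CD68, of 11 on the list, had log2 fold changes of 0.93, 0.67 and 0.33, and the groups of CSF1R overlapped. None of the 6 osteoclast markers was listed in set 2. The part of such a shift in the values above was not tested, and in bulk RNA more cells of a type cannot be told apart from more RNA per cell.

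**Figure D1:**
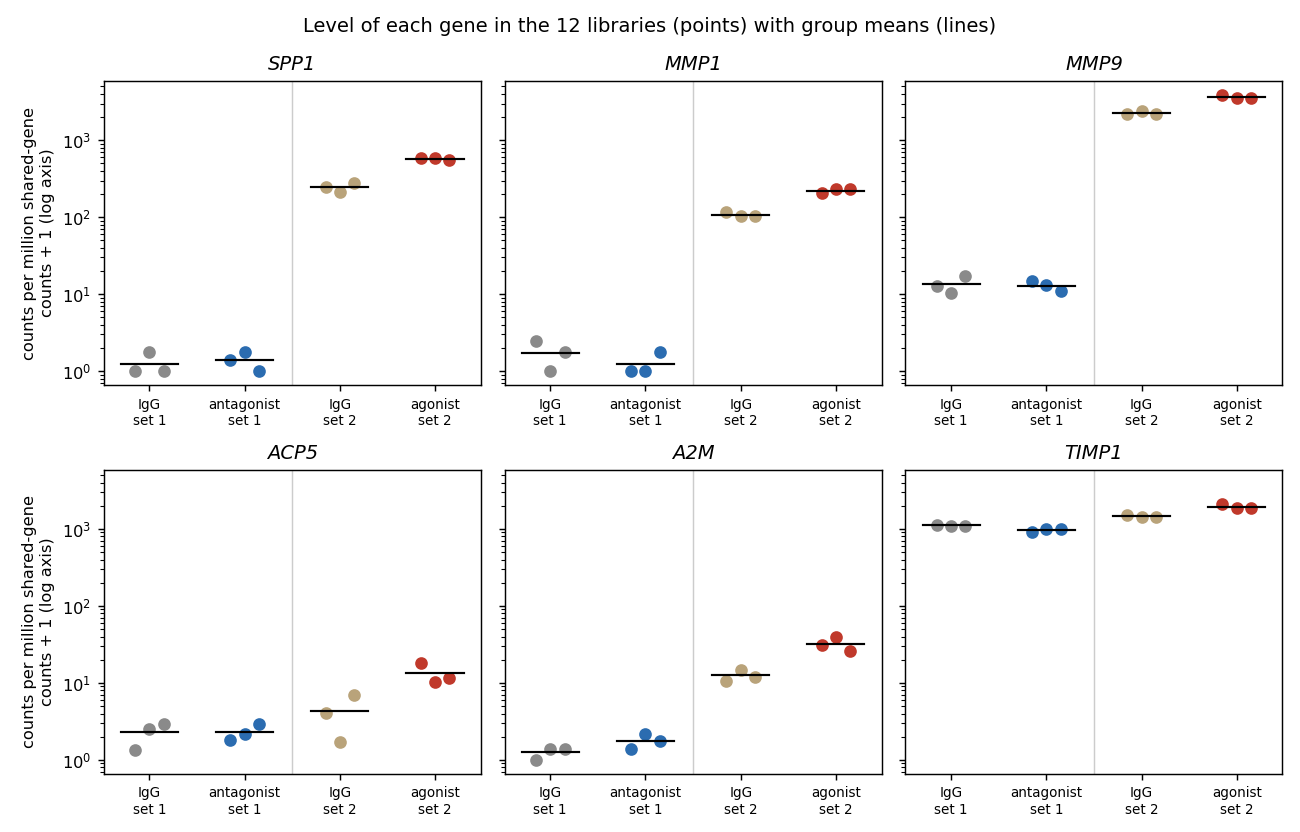
Level of each of the 6 genes in every library, as shared-gene CPM (scaled to the summed counts of the 902 genes in both tables) plus 1, on a log axis. Points are libraries and lines are group means; the grey line parts the separately deposited sets. In set 1, SPP1, MMP1, A2M and ACP5 were near the bottom of the scale, and MMP9 lay at 9.34 to 16.1 before 1 was added. In set 2, SPP1, MMP1 and MMP9 were above 100, whereas TIMP1 lay near 1000 or above in all 12 libraries.

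Ratios of genes within a library do not depend on how the library is scaled, which matters for a table of selected genes. Relative to TIMP1 counts, all 5 other genes were higher in every agonist library than in every IgG library of set 2. The genes were chosen on this contrast and TIMP1 rose least of the 6, so these gains describe the choice. By log2 fold change TIMP1 ranked 157 among the 904 listed genes, and how many of them gained on it without overlap was not counted. MMP9 counts were 145%, 168% and 153% of TIMP1 counts with IgG and 187%, 189% and 194% with the agonist. SPP1 counts went from 16.9% ± 2.5 to 29.7% ± 1.7 of TIMP1 counts (SD, n = 3), and MMP1 counts from 7.37% ± 0.42 to 11.5% ± 1.4. A2M counts went from 0.792% ± 0.158 to 1.61% ± 0.36, and ACP5 counts from 0.224% ± 0.186 to 0.633% ± 0.179. The enzymes and osteopontin thus gained on the inhibitor TIMP1, while the other inhibitor, A2M, gained on it as well. Against MMP9, SPP1 gained without overlap (from 10.9% ± 2.1 to 15.6% ± 0.8 of MMP9 counts), whereas the ratio of MMP1 to MMP9 overlapped between groups (4.78% ± 0.60 and 6.03% ± 0.65).

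**Figure D2:**
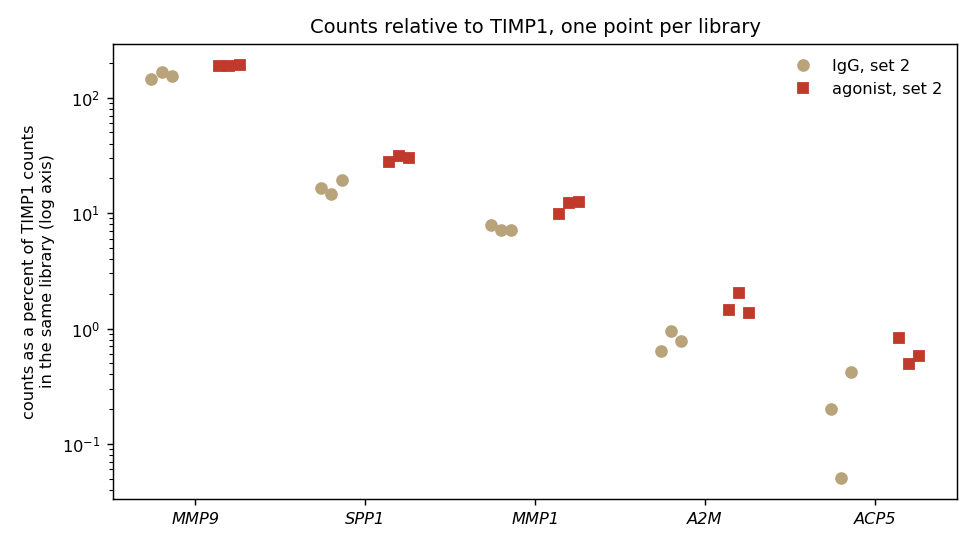
Counts of 5 genes as a percent of TIMP1 counts in the same library of set 2, on a log axis, with 1 point per library (circles IgG, squares agonist). For each gene the 3 agonist libraries lie above the 3 IgG libraries; MMP9 goes from 145% to 168% up to 187% to 194%.

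Per kilobase of exon, MMP9 and TIMP1 were the most abundant of the 6 transcripts in set 2. With IgG, MMP9 stood at 967 ± 59 and TIMP1 at 945 ± 24 shared-gene CPM per kilobase, scaled to the summed counts of the 902 shared genes (SD, n = 3), which did not differ beyond their spread. SPP1 followed at 106 ± 15 and MMP1 at 54.5 ± 4.5, and A2M (1.80 ± 0.33) and ACP5 (1.12 ± 0.91) came last with overlapping spreads. With the agonist the order was the same, with MMP9 at 1579 ± 74 and TIMP1 at 1260 ± 78, now without overlap, and A2M at 4.90 ± 1.03 beside ACP5 at 4.25 ± 1.48. The 6 genes together summed to 4027 to 4181 shared-gene CPM in IgG libraries of set 2 and 6267 to 6801 in agonist libraries. MMP9 made up 53.6% to 57.9% of those counts with IgG and 56.5% to 57.3% with the agonist.

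The same genes were nearly silent in set 1, apart from TIMP1. SPP1 had 0, 2 and 0 counts in the IgG libraries and 1, 2 and 0 in the antagonist libraries, and 3 counts in such a library correspond to 0.159 to 0.176 CPM. MMP1 had 4, 0 and 2 counts with IgG and 0, 0 and 2 with the antagonist, A2M 0, 1 and 1 against 1, 3 and 2, and ACP5 1, 4 and 5 against 2, 3 and 5. MMP9 had 33, 24 and 41 counts with IgG and 34, 31 and 26 with the antagonist. TIMP1 alone was well counted, at 3150, 2802 and 2817 with IgG. TIMP1 therefore took 98.3% to 98.9% of the 6 genes' counts in every library of set 1, and between 29.6% and 37.1% in set 2.

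Both IgG groups carry the same labels, yet they differed widely in these genes. In shared-gene CPM, MMP9 stood at 12.4 ± 3.4 in IgG libraries of set 1 and at 2259 ± 139 in those of set 2 (SD, n = 3), a ratio of 181 (95% Clopper-Pearson interval from the summed counts, 149 to 223). For SPP1 the levels were 0.259 ± 0.449 and 246 ± 36, with a ratio of 975 (270 to 8057) that rests on 2 counts in set 1. The ratio was 142 for MMP1 (64.9 to 387), 44.9 for A2M (12.1 to 375, again from 2 counts) and 2.65 for ACP5 (1.27 to 6.06). TIMP1 differed by 1.31-fold (1.28 to 1.35), from 1111 ± 23 to 1456 ± 37. Among the 902 shared genes, ordered by log2 difference after adding 1 to each level, SPP1 ranked 2, MMP9 ranked 3, MMP1 ranked 11 and A2M ranked 44, whereas ACP5 ranked 241 and TIMP1 ranked 370. The middle 50% of shared genes lay between -0.75 and 0.96 on that log2 scale, and 26 genes lay above 4. CD14, a marker of mature monocytes, was 34.6-fold higher in set 2 (22.7 to 55.6), CSF1R 2.45-fold and CD68 1.65-fold. These are levels across tables that were deposited separately and selected differently, so they carry no test, and intervals cover counting error only. A difference between the IgG groups cannot be told apart from a difference between the sets.

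**Figure D3:**
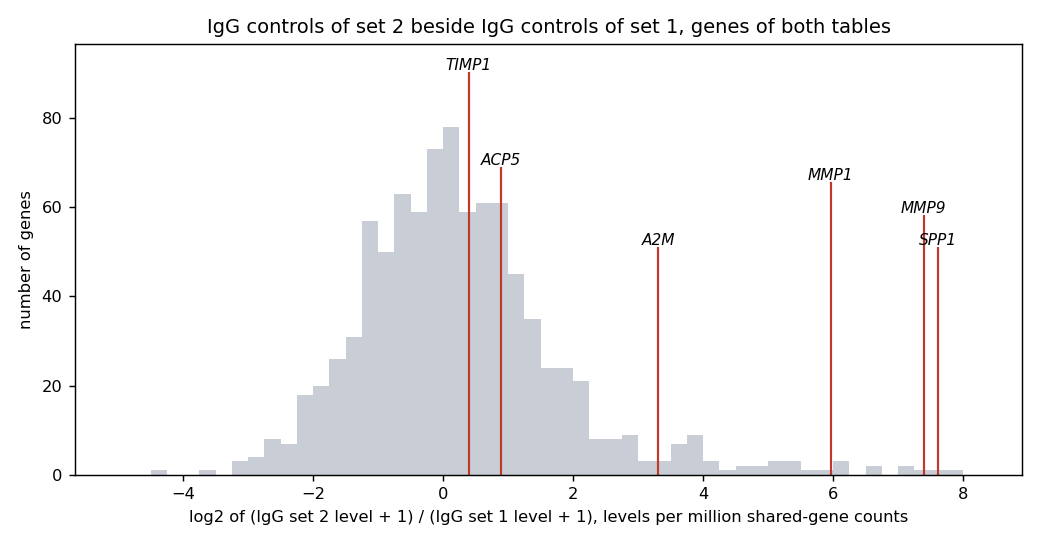
Distribution over the 902 genes of both tables of the log2 difference between IgG libraries of set 2 and of set 1, with 1 added to each level in shared-gene CPM. Red lines mark the 6 genes, and their heights carry no value: SPP1, MMP9 and MMP1 lie at the far right, A2M between them and the bulk, and ACP5 and TIMP1 within the bulk.

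The antagonist contrast was not used to choose the genes, and 2 of the 6 passed its filter on low counts. TIMP1 fell, from 169, 166 and 172 TMM-scaled CPM with IgG to 131, 142 and 141 with the antagonist. All 3 antagonist libraries lay below all 3 IgG libraries, and the log2 fold change was -0.30 ± 0.06 (SE; edgeR quasi-likelihood test, Benjamini-Hochberg adjusted p = 0.00212). It passed in all 9 other settings, with log2 fold changes of -0.32 to -0.21 and adjusted p of 9.39e-05 to 0.0231. A fall of this kind was common in these libraries, since 20.5% of the 13778 tested genes were called lower and 15.6% higher, and 27.1% had antagonist libraries all below the IgG libraries. The summed level of the 11 monocytic markers was scaled by column totals. It lay at 4598 to 4638 CPM with IgG and 3987 to 4083 with the antagonist. Among the 10 tested markers, 2 were called lower and 0 higher. The part of this summed level in the TIMP1 value was not tested. MMP9 had 1.90 ± 0.55 TMM-scaled CPM with IgG and 1.69 ± 0.26 with the antagonist, with overlapping groups and a log2 fold change of -0.16 ± 0.27 (edgeR adjusted p = 0.666). Over summed counts, 98 with IgG and 91 with the antagonist, the ratio of MMP9 was 0.945 (95% Clopper-Pearson interval 0.702 to 1.27, scaled by totals). The ratio of MMP9 to TIMP1 counts was 1.12% ± 0.31 with IgG and 1.23% ± 0.24 with the antagonist (two-sided exact permutation p = 0.7, where 3 against 3 libraries allow no less than 0.1).

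For the other 4 genes a difference with the antagonist was not detectable at this depth. The ratio of summed antagonist to IgG counts, with TMM scaling, was 1.44 for SPP1 (95% Clopper-Pearson interval 0.165 to 17.3), 0.321 for MMP1 (0.0317 to 1.79), 0.963 for ACP5 (0.360 to 2.58) and 2.89 for A2M (0.517 to 29.3). Each interval spans 1 and covers counting error only. Single libraries moved these ratios. For SPP1 the ratio was 0.726 without antagonist library 2, 2.18 without antagonist library 3 and 0.926 without IgG library 1, and without IgG library 2 no IgG count was left. For MMP1 it was 0.617 without IgG library 1 and 0.484 without antagonist library 2, and without antagonist library 3 no antagonist count was left. For A2M it was 1.85 without IgG library 1, and for ACP5 it ran from 0.686 to 1.32.

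**Figure D4:**
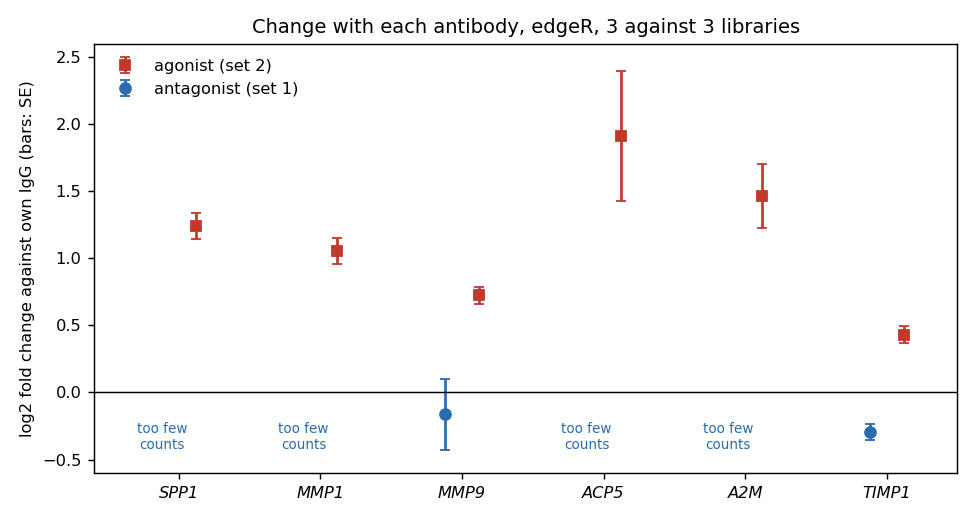
Log2 fold change of each gene against the IgG libraries of its own set, with standard errors from edgeR, for the agonist (squares) and the antagonist (circles). All 6 agonist values are above zero, from 0.43 for TIMP1 to 1.91 for ACP5, and were used to choose the genes; with the antagonist TIMP1 lies at -0.30, MMP9 at -0.16, and the other 4 genes had too few counts.

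Related genes in the agonist table were described by count. Of 23 matrix metalloproteinases 3 were listed, all higher, the third being the membrane-anchored MMP25 (log2 0.36 ± 0.10). Of 19 cathepsins and cystatins 6 were listed and all 6 were higher, with CTSO at 0.85 ± 0.19, the abundant lysosomal proteases CTSB at 0.32 ± 0.05 and CTSD at 0.23 ± 0.05, and CTSH at 0.20 ± 0.05. Listed genes of the plasminogen system and its relatives included the urokinase receptor PLAUR (0.33 ± 0.06) and the elastase inhibitor SERPINA1 (0.17 ± 0.06), both higher. Of 11 genes for osteopontin and macroglobulin receptors and their partners, 1 was listed, the integrin subunit ITGB5 (0.69 ± 0.12).

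Of 22 osteoclast genes 4 were listed and all had positive values: ACP5, the proton pump subunit TCIRG1 (0.47 ± 0.06), the adaptor TYROBP (0.54 ± 0.09) and CSF1R (0.67 ± 0.22, with overlapping groups). Matrix proteins were represented by ECM1 (0.42 ± 0.06), the chitinase-like protein CHI3L1 (0.31 ± 0.05) and the granule proteoglycan SRGN (0.13 ± 0.05). Of 30 regulators of metalloproteinase genes 6 were listed, 4 with positive and 2 with negative values. The AP-1 subunits FOS (0.33 ± 0.06) and JUNB (0.35 ± 0.09) were higher, as was RUNX2 (0.27 ± 0.10), JUN stood at 0.26 ± 0.10 with overlapping groups, and the transcription factors RUNX1 (-0.47 ± 0.08) and ETS1 (-0.37 ± 0.08) were lower. ADAM9, a membrane protease, was the listed member of 18 ADAM and ADAMTS genes (0.17 ± 0.07, with overlapping groups). Over all 904 listed genes the median log2 fold change was 0.19, with 504 positive and 400 negative values. Listed members were selected on these libraries, so the counts are no evidence of direction for the full lists.

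With the antagonist, called genes of the related lists are read beside the 15.6% of all tested genes that rose and the 20.5% that fell. Of 8 tested metalloproteinases 2 rose and 0 fell (median log2 fold change 0.21, against -0.01 for all genes tested): MMP24 (0.91 ± 0.17, adjusted p = 0.00152) and MMP14, the membrane enzyme that activates MMP2 (0.48 ± 0.15, adjusted p = 0.0231). Of 20 tested matrix proteins 5 rose and 1 fell (median 0.37), with the basement membrane proteoglycan HSPG2 at 1.01 ± 0.14, the laminin chain LAMA5 at 0.77 ± 0.15, fibrillin FBN1 at 0.52 ± 0.10 and SRGN at -0.48 ± 0.08. With column totals in place of TMM 3 metalloproteinases rose and 0 fell, and 8 matrix proteins rose and 1 fell. TIMP1 was the only called gene of 3 tested metalloproteinase inhibitors (median -0.15), and with column totals 1 rose and 1 fell.

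Of 16 tested cathepsins and cystatins 9 fell and 0 rose (median -0.23), among them the granule protease CTSG (-0.35 ± 0.05), CTSS (-0.40 ± 0.07) and the inhibitors CSTB (-0.41 ± 0.06) and CST7 (-0.34 ± 0.06). With column totals 6 fell. Of 12 tested genes for plasminogen activators and serpins 6 fell and 1 rose (median -0.27). The protease inhibitors SERPINE2 (-0.36 ± 0.06), SERPINB1 (-0.32 ± 0.06) and SERPINB6 (-0.31 ± 0.06) were lower and urokinase PLAU (0.21 ± 0.06) was higher. With column totals or DESeq2 3 of these 12 genes fell and 1 rose. Of 10 tested genes for osteopontin and macroglobulin receptors and their partners 4 fell, and with column totals 2 fell. The 4 were the receptor-associated protein LRPAP1 (-0.33 ± 0.05), the chaperone HSPA5 (-0.30 ± 0.05), ITGB1 (-0.26 ± 0.06) and the osteopontin receptor CD44 (-0.18 ± 0.06).

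The remaining lists split. Of 15 tested osteoclast genes 2 rose, such as TCIRG1 (0.31 ± 0.09), and 3 fell, SNX10 (-0.56 ± 0.10), TYROBP (-0.38 ± 0.08) and OSTM1 (-0.44 ± 0.11), with a median of 0.07, and with column totals 3 rose and 3 fell. Of the 6 osteoclast markers 3 were tested and 0 were called. Their summed level, scaled by column totals, was 7.28 to 7.97 CPM with IgG and 8.10 to 9.52 with the antagonist. Of 10 tested ADAM and ADAMTS genes 2 rose, ADAM8 (0.71 ± 0.12) and ADAMTS10 (0.46 ± 0.16, with overlapping groups), and 2 fell, ADAM10 (-0.26 ± 0.07) and ADAM9 (-0.23 ± 0.07); with column totals 5 rose and 0 fell, and with DESeq2 4 rose and 1 fell. Of 12 genes of collagen processing 1 rose, the crosslinking enzyme LOXL2 (0.55 ± 0.15), and 2 fell, the collagen hydroxylase subunits P4HA1 (-0.40 ± 0.09) and P4HB (-0.21 ± 0.06), and with column totals 1 rose and 1 fell. Of 30 regulators 4 rose and 5 fell (median -0.05), with SMAD3 (0.47 ± 0.06), RUNX2 (0.40 ± 0.05) and RUNX1 (0.25 ± 0.07) higher and the metalloproteinase inducer BSG (-0.21 ± 0.06) lower; with column totals 7 rose and 0 fell, and the median was 0.03, and with DESeq2 4 rose and 1 fell. Calls are edgeR adjusted p under 0.05 over all 13778 genes, of which 36.1% were called in either direction.

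**Figure D5:**
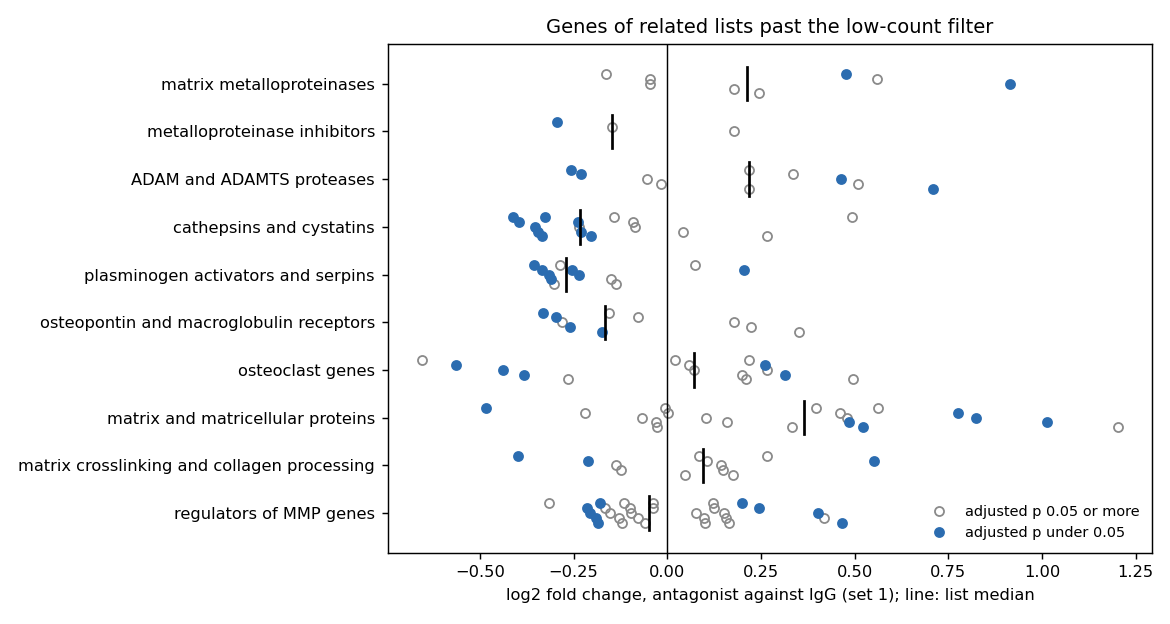
Log2 fold change with the antagonist for the tested genes of 10 related lists, 1 circle per gene, filled where the edgeR adjusted p was under 0.05, with a line at each list's median. Medians run from -0.27 for plasminogen activators and serpins to 0.37 for matrix proteins, beside -0.01 for all genes tested.

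For each of the 6 genes the nearest profiles among the 902 shared genes were taken by root mean square difference over the 12 libraries, in log2 CPM relative to the IgG mean of the same set. TIMP1 was closest to the ferritin heavy chain FTH1 (0.05), the lysosomal thiol reductase IFI30 (0.07) and the thioredoxin inhibitor TXNIP (0.07). With the antagonist FTH1 changed by -0.28, IFI30 by -0.35 and TXNIP by -0.25, and with the agonist by 0.37, 0.51 and 0.45. MMP9 was closest to the transporter SLCO2B1 (0.16), ITGB5 (0.18) and EMP1 (0.19), and TIMP1 lay at 0.25 from it. SLCO2B1 had 1 count over the IgG libraries of set 1 and did not pass the filter on low counts there. SPP1 was closest to ACVR2A (0.34), LOC105373311 (0.38) and C1S (0.38), and MMP1 to MB21D2 (0.32), ARRDC3 (0.37) and CISD1 (0.40). A2M was closest to PLEKHN1 (0.31), ADCY6 (0.32) and LOC105373311 (0.34), and ACP5 to VAC14-AS1 (0.52), CD52 (0.52) and YPEL4 (0.58). The set 1 part of those 4 profiles rests on a few counts per library, and the likeness says nothing of shared control.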

How the data were processed

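RNA sequencing of 12 U937 libraries was deposited by the authors as 2 tables of whole-number read counts per gene, not normalized. HISAT2, Cufflinks and the build hg38 are named, per the submitters' processing notes. Tool versions, counting program, annotation and strand use were not given in the sources used here. Column names repeat each group name, so columns were assigned to groups only, and library numbers follow column order. In set 1, 570 rows without a symbol (0.0678% to 0.105% of counts) were left out. Tests within each set used the quasi-likelihood fit of edgeR 4.0.16 (R 4.3.3; filterByExpr, TMM, robust quasi-likelihood test, Benjamini-Hochberg at 0.05); the fit was tested on simulated data. SE is the fold change over the root of F. DESeq2 1.42.0, column totals, no filter and leaving out each library were alternatives. Levels across sets are shared-gene CPM, scaled to the summed counts of the 902 shared genes, which took 14.6% to 14.9% of counts in set 1. Exon lengths are unions of GENCODE 29 exons. The 6 genes and the lists were chosen with earlier results of these data known. Genes named from each list are up to 4 called genes with the smallest adjusted p in set 1 and up to 4 listed genes with the largest change in set 2, and up to 3 nearest profiles per gene (a prior count of 2). A gene that this rule names in set 2 is not reported here.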

Additional observations from a re-analysis of the deposited data

Results flagged for a closer look

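TIMP1 moved in opposite directions with the antibodies, with every antagonist library below its IgG libraries and every agonist library above its own. Its log2 fold change was -0.30 with the antagonist and 0.43 with the agonist. The difference between those effects was not tested, since the agonist contrast was used to choose the gene. Each direction was common. Antagonist libraries lay all below IgG for 27.1% of 13778 tested genes, and agonist libraries all above IgG for 53.4% of 904 listed genes. FTH1, IFI30 and TXNIP, the nearest profiles to TIMP1, also had negative values with the antagonist and positive values with the agonist. How many genes had both was not counted.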

How the results depend on the processing

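No paired analysis was possible because the columns carry no replicate number. With the antagonist, 4978 genes were called; the count was 4309 with DESeq2, 4619 with column totals and 5394 with no filter, and 3143 to 5075 when each library was left out, with the lowest counts without antagonist library 1 (3143) and library 3 (3190). Higher calls were 43.1% of calls and 65.4% with column totals. The MMP9 log2 fold change with the antagonist ran from -0.31 to 0.08 over the left-out libraries and was above zero (0.083) without IgG library 3; it passed in none of the 9 settings (adjusted p 0.422 to 0.913). In set 2, higher calls were 55.7% of 903 and, with DESeq2, 43.5% of 708; the 6 genes stayed above zero in all settings run, with DESeq2 values of 1.15 for SPP1, 0.96 for MMP1, 0.63 for MMP9, 1.84 for ACP5, 1.37 for A2M and 0.34 for TIMP1. With each table's own total in place of the shared-gene total, set 1 levels in CPM became, for IgG and antagonist, 164.5 and 142 for TIMP1, 1.84 and 1.74 for MMP9, 0.192 and 0.190 for ACP5, and 0.114 for A2M with the antagonist, by construction. Few counts limit SPP1, MMP1, ACP5 and A2M in set 1 and ACP5 in set 2.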

Other observations

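The 6 genes were not alone in the gap between IgG groups, and the genes below were picked after their values were seen. The chemokine CXCL10 and the scavenger receptor CD163 had 0 counts in IgG libraries of set 1 and 2165 and 1356 counts in those of set 2, which puts the lower 95% Clopper-Pearson limit of their ratio per shared-gene count at 501 and 314. The alarmin S100A9 was 155-fold higher (95% Clopper-Pearson interval 115 to 213). Genes that nearly all cells use also differed: the RNA polymerase II subunit POLR2A was 14.7-fold higher (13.6 to 15.8) and FTH1, which has near copies that can share its reads, 23.3-fold (22.9 to 23.7). These values carry no test, since the tables were deposited separately.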
